A study of Homo sapiens with 9 samples.

Results

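The human mitochondrial genome encodes 13 proteins, and the mRNAs of all 13 were measured here by RNA sequencing of SKMEL28 cells, a human melanoma line. They were chosen as every row placed on the mitochondrial chromosome in the deposited tables, which made 13 of 48162 genes. The other mitochondrial genes, which are 2 ribosomal RNA and 22 transfer RNA genes in the GENCODE v29 annotation, were not analysed here. The 9 libraries fall into 3 groups of 3: shCont, transduced with lentivirus carrying a hairpin against GFP; shp16, with a hairpin against p16; and shp16+shATR, with hairpins against p16 and against ATR. All cells were grown in DMEM with 5% FBS and selected for 3 days in puromycin at 1 µg/ml, so the control cells carried a hairpin and were selected too. Which hairpin against ATR these libraries carry is not given in the sources used here. The design asks what changes when p16 is knocked down and what changes again when ATR is knocked down on top of it. Where the study describes these libraries, it calls the replicates of a group technical, so the p-values below measure only the spread between libraries of 1 experiment in 1 cell line.

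Mitochondrial DNA is a small circle that is transcribed along nearly its whole length from each strand. The long transcripts are cut mainly at the transfer RNAs that punctuate them, and a polymerase of the organelle adds poly(A) tails to most of the mRNAs. Because the genes of a strand start out on shared transcripts, differences in level between them arise largely from processing and stability. The 13 proteins are core subunits of the respiratory chain: MT-ND1 to MT-ND6 and MT-ND4L of complex I, MT-CYB of complex III, MT-CO1, MT-CO2 and MT-CO3 of complex IV, and MT-ATP6 and MT-ATP8 of the ATP synthase. All the other subunits, and the machinery of mitochondrial transcription and RNA decay, are encoded in the nucleus.

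The ends of the reading frames are shown because some carry a feature that nuclear genes lack, a stop codon that the DNA leaves unfinished. Each line gives the last 12 bases of a gene as its mRNA reads, 5′ to 3′, with the stop codon, or the bases of it that the genome encodes, in capitals. The sequences are those of GENCODE v29 (GRCh38), in which all 13 genes have the coordinates of the deposited table.
MT-ND1, MT:3307-4262, plus strand: ccctcaaaccTA
MT-ND2, MT:4470-5511, plus strand: taataatcttaT
MT-CO1, MT:5904-7445, plus strand: ataaaatctAGA
MT-CO2, MT:7586-8269, plus strand: tttaccctaTAG
MT-ATP8, MT:8366-8572, plus strand: ccacaatccTAG
MT-ATP6, MT:8527-9207, plus strand: gacaacacaTAA
MT-CO3, MT:9207-9990, plus strand: gatgagggtctT
MT-ND3, MT:10059-10404, plus strand: actgaaccgaaT
MT-ND4L, MT:10470-10766, plus strand: ctccaatgcTAA
MT-ND4, MT:10760-12137, plus strand: ggttttcctctT
MT-ND5, MT:12337-14148, plus strand: ctaatcacaTAA
MT-ND6, MT:14149-14673, minus strand: cgggggaatAGG
MT-CYB, MT:14747-15887, plus strand: tcaaatgggccT
In 7 genes the last codon is whole, and in 6 it is not: 5 of these end in a single T and MT-ND1 ends in TA. The poly(A) tail supplies the missing bases, so in these genes the tail completes the reading frame. MT-CO1 and MT-ND6 end in AGA and AGG, which are arginine codons in the nucleus.

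The genes have no introns and lie nearly end to end, and some share bases. MT-ATP8 and MT-ATP6 are read from 1 mRNA, in different frames, and overlap at MT:8527-8572. The 46 shared bases are shown because they take up 22.2% of MT-ATP8 and only 6.76% of MT-ATP6, with the start codon of MT-ATP6 and the stop codon of MT-ATP8 at their ends.
MT-ATP8 and MT-ATP6 overlap: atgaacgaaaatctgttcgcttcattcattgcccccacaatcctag
MT-ND4L and MT-ND4 likewise share 7 bases at MT:10760-10766, atgctaa, on a common mRNA. MT-ND5 ends at 14148 and MT-ND6, on the other strand, ends at 14149, so the genes abut tail to tail. The strands differ in base composition: MT-ND6 as read is 35.6% G and 7.05% C, whereas the 12 genes of the plus strand are 6.28% to 16.2% G and 29.5% to 36.0% C. Whether reads were counted by strand is not given in the sources used here, so counts on MT-ND6 cannot be told apart from those of antisense RNA of the plus-strand transcript.

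Before the groups were compared, the libraries were checked against their labels. Library totals ran from 17314662 to 23588174 counts, and no pair of libraries of a group agreed within sampling noise. The closest pair of a group was shp16 2 and 3, with a chi-square per degree of freedom of 1.94 between their counts. Between shp16 1 and these 2 libraries it was 37.9 and 37.2. All 8 melanocyte markers examined were present in every library, the least of them TYRP1 at 52.7 to 145 CPM (counts scaled to a common library size after TMM normalization). The 4 leukocyte markers summed to at most 0.0519 CPM. The 3 epithelial markers summed to between 10.7 and 17.5 CPM in shCont and between 41.6 and 54.0 in shp16. EPCAM was at most 0.549 CPM, CDH1 at 1.77 to 22.8 and KRT18 at 8.17 to 36.8. The 2 epithelial markers tested passed the edgeR test as higher in shp16 than in shCont, by 1.42 and 2.90 on the log2 scale. The 4 fibroblast markers summed to between 32.6 and 42.5 CPM in shCont and between 27.2 and 45.7 in shp16. The melanocyte markers summed to between 13386 and 15002 CPM in shCont and between 7769 and 13015 in shp16. Of these 8, 2 passed as lower in shp16. The part of these markers in the results was not tested. ATR was at 39.9, 39.98 and 41.0 CPM in the shp16+shATR libraries and at 93.5, 83.4 and 85.6 in shp16. It fell by 1.12 on the log2 scale (SE 0.22, edgeR adjusted p = 0.0128). In shCont, ATR was at 93.5 and 96.4 CPM in libraries 2 and 3 but at 45.9 in the library labelled shCont 1, which lies near the ATR knockdown and goes against that library's label. CDKN2A, which encodes p16, was at 162, 113 and 103 CPM in shCont, where 162 is the library labelled shCont 1, and at 78.1, 93.5 and 99.9 in shp16. These ranges did not overlap, but the log2 difference of −0.48 (SE 0.16) did not pass the edgeR test, with an adjusted p of 0.0723, and the count covers all transcripts of CDKN2A. Main results that rest on the library labelled shCont 1, or on shp16 library 1, are therefore given with and without it, and some others library by library.

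The mitochondrial mRNAs were among the most abundant in these cells. MT-CO1 had more counts over the 9 libraries than any other gene, and MT-ND4, MT-CO2, MT-CO3 and MT-CYB ranked 3, 5, 7 and 9 of all genes. Together the 13 genes took 6.56% of all counts in the library labelled shCont 1 and 5.17% and 5.99% in shCont 2 and 3. They took 7.24% in shp16 1 and 4.25% in each of shp16 2 and shp16 3. In the shp16+shATR libraries a, b and c they took 4.94%, 4.45% and 5.47%.

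The highest and the lowest of the 9 shares thus stood in the same group, shp16. Counting error is far smaller than these gaps, since the Wilson 95% interval of a library's share was at most 0.011 percentage points to either side. As mean ± SD over 3 libraries, shCont stood at 5.91% ± 0.697, shp16 at 5.25% ± 1.72 and shp16+shATR at 4.95% ± 0.513. The ranges overlapped in all 3 comparisons. By a two-sided exact permutation test p was 0.6 for shp16 against shCont, 1 for shp16+shATR against shp16 and 0.2 for shp16+shATR against shCont, where 3 libraries against 3 cannot go below 0.1. Without shp16 1 the mean of shp16 was 4.25%, and the difference of shp16+shATR from shp16 turned from −0.294 to 0.702 percentage points. Without the library labelled shCont 1 the mean of shCont was 5.58%. A bulk library does not tell fewer mitochondrial genomes per cell apart from fewer transcripts per genome, or fewer cells of a kind from less RNA per cell.

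**Figure D1:**
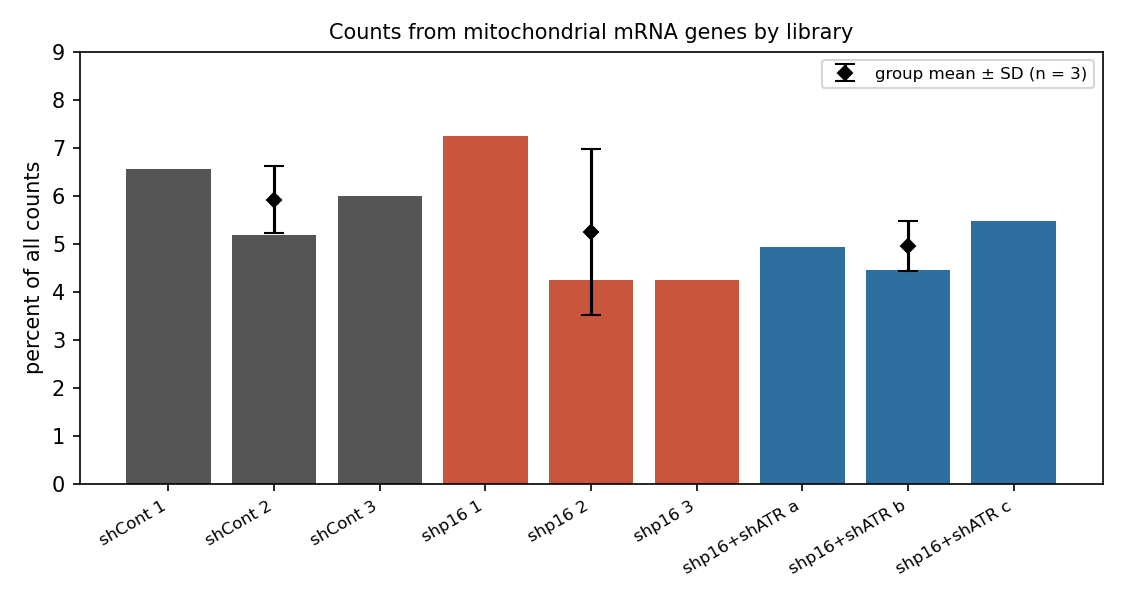
Percent of all counts that fell on the 13 mitochondrial mRNA genes, 1 bar per library, coloured by group; diamonds and bars give the group mean ± SD (n = 3). The shp16 group holds both the highest library, at 7.24%, and the lowest, at 4.25%, and the groups overlap.

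Levels of different genes can be compared only per length, for which the deposited FPKM values were used (counts scaled by gene length and library total). On that scale the 13 mRNAs spanned a wide range, in an order that differed little between libraries. MT-CO1, the catalytic core of complex IV, averaged 11704 FPKM over the 9 libraries, from 9326 to 16084. MT-CO2 averaged 8814 and MT-CO3, the third core subunit, 7235.

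MT-CO1 exceeded MT-CO2 in 8 of 9 libraries. The exception was the library labelled shCont 1, where they had 13107 and 13158 FPKM. MT-ND4 followed with a mean of 5515 FPKM, then MT-ATP6 with 4907 and MT-CYB with 3983. Each of the genes from MT-CO2 to MT-ND2 exceeded the next in the order in 9 of 9 libraries.

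The remaining complex I genes were lower and closer together. MT-ND2 averaged 2117 FPKM, MT-ND5 1801 and MT-ND1 1466. MT-ND6, the only gene of the 13 on the minus strand, averaged 1455, MT-ND3 1374 and MT-ND4L 1175. The order within this group was not fixed, since MT-ND1 exceeded MT-ND6 in 5 of 9 libraries, MT-ND6 exceeded MT-ND3 in 6, and MT-ND3 exceeded MT-ND4L in 6. The complex IV genes thus stood highest and the complex I genes, apart from MT-ND4, lowest of the 12 mRNAs other than MT-ATP8, and the mean differed 9.96-fold from MT-CO1 to MT-ND4L.

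**Figure D2:**
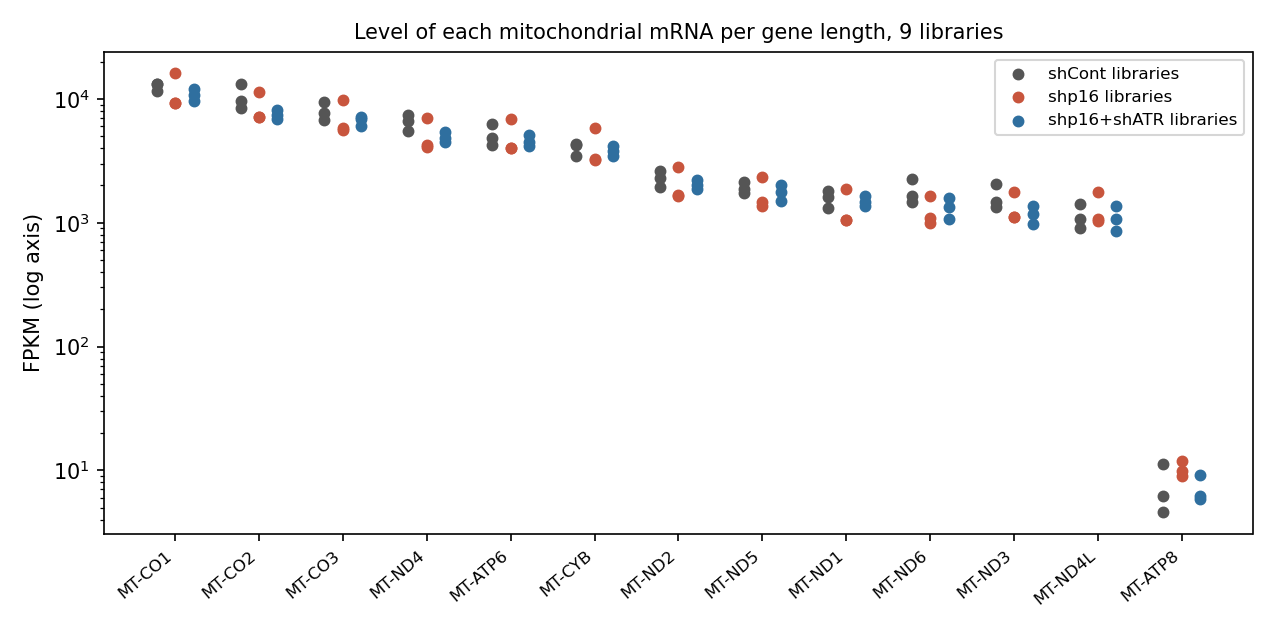
Level of each mitochondrial mRNA in FPKM on a log axis, 1 point per library, ordered by the mean and coloured by group. The 12 mRNAs other than MT-ATP8 lie between 853 and 16084 FPKM with their groups intermixed, and MT-ATP8 lies between 4.62 and 11.8.

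MT-ATP8 stood apart from the rest. It had 55, 24 and 19 counts in the library labelled shCont 1 and in shCont 2 and 3, 42, 38 and 49 in shp16, and 21, 29 and 38 in shp16+shATR. In FPKM this was between 4.62 and 11.8, although MT-ATP6, which lies on the same mRNA, was between 4023 and 6847. The ratio of MT-ATP6 to MT-ATP8 in FPKM ran from 340 in shp16 3 to 1054 in shCont 3.

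The gene is 207 bases long, and how reads that touch more than 1 gene were counted is not given in the sources used here, so its value is uncertain as a level of that part of the mRNA. Its counts were also too few for a firm comparison: the exact 95% Poisson interval of the 19 counts in shCont 3 is 11.4 to 29.7, and that of the 55 counts in the library labelled shCont 1 is 41.4 to 71.6. The other overlapping pair was less extreme. The level of MT-ND4L was 0.123 of that of MT-ND4 in the library labelled shCont 1, and between 0.189 and 0.255 of it in the other 8.

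Some reads of mitochondrial origin may also be counted on nuclear genes, since the nucleus holds copies of parts of the mitochondrial genome. The tables list 188 such copies, of which 51 had any count, 42601 in all. MTATP6P1, at 1:569076-569756 in the coordinates of the deposited table, held 39575 of these counts, and its reference sequence matches 98.5% of MT-ATP6. Within a library its count was 5.44% to 7.13% of that of MT-ATP6. MTND2P28, with 2470 counts and 98.4% identity to MT-ND2, was at 0.488% to 0.741% of MT-ND2, and MTRNR2L3 came next with 59 counts. Reads of these copies cannot be told apart with confidence from those of MT-ATP6 and MT-ND2, but their counts amounted to only 0.378% to 0.488% of the mitochondrial counts in any library.

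Each mRNA was then compared between the groups in CPM, by edgeR's quasi-likelihood test fitted to all 15776 genes that passed its filter on low counts. All 13 mitochondrial genes passed the filter. None of them passed the test in shp16 against shCont, 0 of 13, where 14.8% of all genes did. None passed in shp16+shATR against shp16, where 6.22% of all genes did, nor in shp16+shATR against shCont, where 23.6% did. The unadjusted edgeR p was under 0.05 for 0 of 13 in each comparison. DESeq2 and limma on log2 FPKM called 0 of 13 in each as well. DESeq2 called 18.6%, 9.56% and 26.5% of all genes in these comparisons, and limma with 1 added called 13.1%, 5.71% and 22.7%.

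The libraries of the groups also overlapped for every member. In CPM, 0 of 13 were separated between the groups in any comparison, against 33.6% of all genes for shp16 and shCont, 37.7% for shp16+shATR and shp16, and 41.5% for shp16+shATR and shCont. The intervals show how precisely each change was estimated: the median 95% interval of a member reached 0.53 to either side on the log2 scale. These intervals are not adjusted for the number of genes tested, whereas the calls were. With the same spread, a call therefore needed a change larger than the reach of the interval. The smallest detectable change was not worked out, and the result does not show that the levels were equal.

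With p16 knocked down, the median log2 fold change of the 13 mRNAs against shCont was −0.14, beside −0.016 over all genes tested, with 3 members above 0 and 10 below. MT-ND6, which encodes a membrane subunit of complex I, had the lowest value. It was at 1235, 746 and 858 CPM in shCont, where 1235 is the library labelled shCont 1, and at 917, 513 and 558 in shp16. Its highest shp16 library lay above 2 of the shCont libraries, so the groups overlapped.

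The log2 fold change of MT-ND6 was −0.51, with a 95% interval of −1.05 to 0.025 and an edgeR adjusted p of 0.187. MT-CO1, the most abundant mRNA, was at 21063, 17283 and 20333 CPM in shCont and at 26440, 14054 and 14020 in shp16. Its shp16 libraries lay on both sides of all shCont libraries. The log2 fold change was −0.11, with an interval of −0.61 to 0.40 and an edgeR adjusted p of 0.802. MT-ND4, a proton-pumping subunit of complex I, was at 10561, 7267 and 9009 CPM in shCont and at 10382, 5720 and 5520 in shp16, a log2 fold change of −0.31 with an interval of −0.82 to 0.20. Here shp16 1 fell among the shCont libraries and the other 2 lay below them.

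MT-CYB, the cytochrome b of complex III, was at 5123, 3812 and 4811 CPM in shCont and at 7150, 3638 and 3569 in shp16. Its log2 fold change was 0.06, with an interval of −0.47 to 0.59. The remaining members lay between −0.28 for MT-CO2 and 0.45 for MT-ATP8, the latter with an interval of −0.32 to 1.22.

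The same pattern of libraries recurred in 12 of the 13 genes. In shp16 1 their CPM was 1.71-fold (MT-ND6) to 1.98-fold (MT-CYB) the mean of shp16 2 and 3, and for MT-ATP8 it was 1.04-fold. Left out, shp16 1 moved the median log2 fold change of shp16 against shCont to −0.50, with 1 member above 0 and 12 below. MT-CO1 (−0.48, SE 0.13, edgeR adjusted p = 0.048), MT-ND4 (−0.67, SE 0.15, adjusted p = 0.0253) and MT-ND1 (−0.62, SE 0.16, adjusted p = 0.0391) then passed the test. This was 3 of 13, beside 8.95% of all genes in that fit, and 11 of 13 were then separated between the groups in CPM, beside 42.7% of all genes. Both counts rest on shp16 2 and 3, which were far closer to each other than to shp16 1. The spread within shp16 was then that of this pair alone. Left out, the library labelled shCont 1 moved the median to −0.017, and MT-ATP8 alone then passed, as higher in shp16 (0.95, SE 0.32, edgeR adjusted p = 0.0495), 1 of 13 beside 25.9% of all genes.

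**Figure D3:**
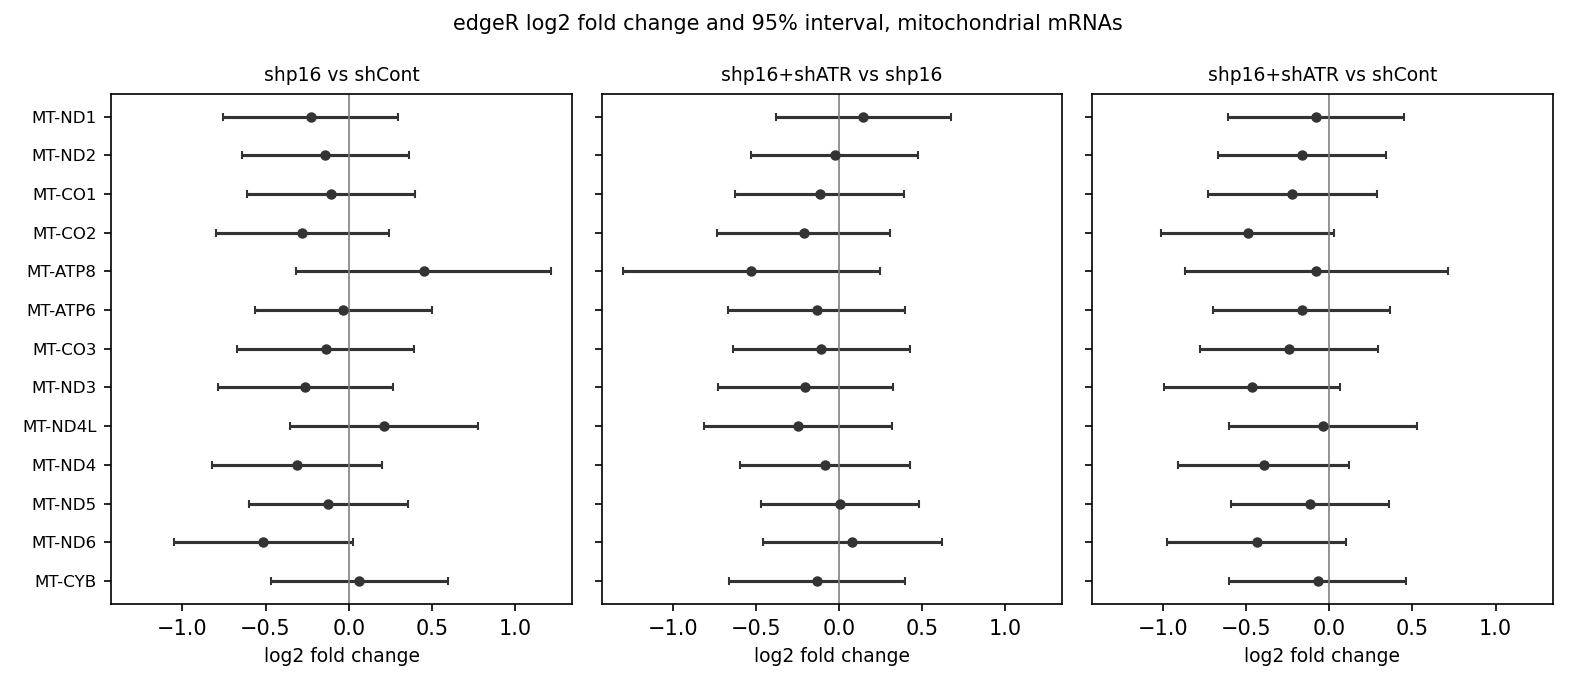
edgeR log2 fold change of each mitochondrial mRNA in the 3 comparisons, in genome order, with its 95% interval. All 39 intervals include 0, and the medians of the 13 genes are −0.14, −0.12 and −0.17 from left to right.

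With ATR knocked down in addition to p16, the median log2 fold change of the 13 mRNAs against shp16 was −0.12, beside 0.0021 over all genes tested, and again 3 members lay above 0 and 10 below. The highest value was that of MT-ND1, a complex I subunit next to the ubiquinone site. It was at 1399, 1295 and 1596 CPM in shp16+shATR a, b and c and at 1909, 980 and 987 in shp16, so all 3 shp16+shATR libraries lay between the shp16 libraries. Its log2 fold change was 0.15, with an interval of −0.38 to 0.67. The lowest was MT-ATP8 at −0.53, on the few counts given above. Without shp16 1 the median turned to 0.27, with 12 members above 0 and 1 below, and 0 of 13 passed the test, beside 3.13% of all genes in that fit. In CPM 8 of 13 were then separated between the groups, beside 52.4% of all genes.

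Against shCont, which serves as the control of shp16 as well, the shp16+shATR libraries had a median log2 fold change of −0.17, beside −0.018 over all genes tested, and all 13 members lay below 0. MT-CO2, the copper-binding subunit of complex IV that takes electrons from cytochrome c, was lowest. It was at 5083, 4610 and 5644 CPM in shp16+shATR and at 9379, 5608 and 6573 in shCont, with 9379 in the library labelled shCont 1. Library c overlapped shCont 2 by a small margin. The log2 fold change was −0.49, with an interval of −1.01 to 0.029 and an edgeR adjusted p of 0.162.

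MT-ND3, a small complex I subunit, had a log2 fold change of −0.47 and MT-ND6 of −0.44 in this comparison, with edgeR adjusted p of 0.191 and 0.232. The others lay between −0.40 for MT-ND4 and −0.04 for MT-ND4L. That all 13 lay below 0 depended on several single libraries. Without the library labelled shCont 1 the median was −0.16, 4 members lay above 0 and 9 below, MT-CO2 was at −0.26 (SE 0.21), and 0 of 13 passed the test, beside 33.3% of all genes in that fit. MT-ND4L turned to 0.16 without shCont 3, and MT-ATP8 to 0.042 without shp16+shATR a. Without shp16+shATR b, MT-ND4L turned to 0.13, MT-ATP8 to 0.034 and MT-CYB to 0.0033.

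**Figure D4:**
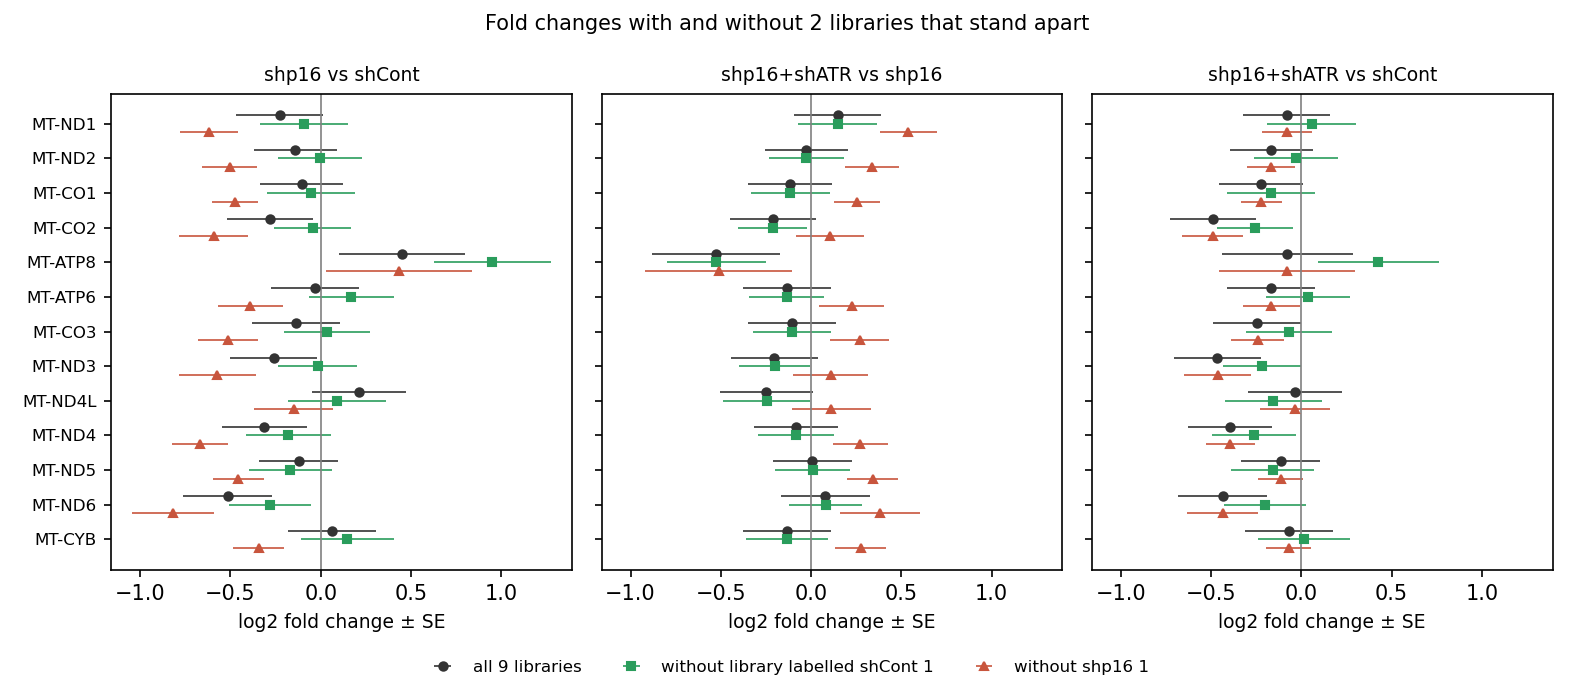
edgeR log2 fold change ± SE of each mitochondrial mRNA with all 9 libraries, without the library labelled shCont 1 and without shp16 1. Leaving out shp16 1 shifts the values of shp16 against shCont to lower, to a median of −0.50, and those of shp16+shATR against shp16 to higher, to a median of 0.27.

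Since the total varied so much between libraries, the make-up of the mitochondrial mRNA pool was compared as well. For this the count of each gene was divided by the counts of all 13 in the same library, which takes the library's total mitochondrial level out of the value. These shares varied much less than the total: in shp16, MT-CO1 took 34.3%, 33.9% and 33.8% of the pool although its CPM differed 1.89-fold. The library labelled shCont 1 was the exception. In it 10 of 13 shares lay outside the range of the other 8 libraries, 6 above and 4 below.

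In that library MT-CO2 took 13.7% of the pool, against 10.1% to 11.5% elsewhere, and MT-ND6 took 1.81%, against 1.19% to 1.52%. MT-CO1 took 30.8%, against 33.5% to 34.7%, and MT-ND5 took 4.76%, against 5.84% to 6.63%. The summed absolute distance of its shares from the mean of the other libraries, halved, was 6.13 percentage points, and it was between 1.34 and 2.44 in the other 8. This library also had the largest share of counts on ribosomal protein genes, 5.59% against 3.53% to 4.40%, and the smallest on MALAT1 and NEAT1, 2 nuclear RNAs, 0.0643% against 0.150% to 0.286%. Their part in the composition was not tested.

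Between shp16 and shCont, 4 of 13 shares were separated, 2 higher and 2 lower in shp16. For genes of all chromosomes, taken as shares of their own chromosome's counts, 33.1% were separated in this comparison, so the count for the mitochondrial genes was near that of genes at large. MT-CYB took 9.27%, 8.78% and 8.61% of the pool in shp16 and 7.49%, 7.65% and 8.09% in shCont. MT-ND4 took 13.5%, 13.8% and 13.3% in shp16 and 15.4%, 14.6% and 15.2% in shCont. MT-ND6 took 1.19%, 1.24% and 1.35% in shp16 and 1.81%, 1.497% and 1.44% in shCont.

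The fourth was MT-ND4L, at 0.729%, 0.746% and 0.715% in shp16 and at 0.408%, 0.619% and 0.708% in shCont. Every shp16 library thus lay above every shCont library for MT-CYB and MT-ND4L, and below for MT-ND4 and MT-ND6. MT-ND4L and MT-ND4 lay in opposite directions although they share an mRNA. How reads that touch both genes were counted is not given, so these shares are uncertain as levels of that mRNA. Shares of 1 pool also cannot all rise together. Each of these differences had the smallest p the exact permutation test allows, p = 0.1, and a Benjamini-Hochberg adjusted p of 0.3 over the 39 tests of 13 shares in 3 comparisons, so none passed. Without the library labelled shCont 1, 6 shares lay higher and 3 lower, beside 52.2% of genes at large separated in those libraries. Without shp16 1, 3 lay higher and 3 lower, beside 42.6%.

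When ATR was knocked down as well, again 4 of 13 shares were separated from those of shp16, beside 37.9% of genes at large. MT-ND1 took 2.84%, 2.96% and 2.87% of the pool in shp16+shATR and 2.47%, 2.36% and 2.38% in shp16. MT-ND2, another complex I subunit, took 4.22%, 4.37% and 4.25% against 4.06%, 4.07% and 4.01%. MT-CO2 took 10.3%, 10.52% and 10.1% against 10.7%, 11.4% and 11.5%.

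For MT-ND1 the groups were 0.480 percentage points apart, with SDs of 0.0627 and 0.0595, and for MT-ND2 0.232 apart. MT-CO2 was lower by 0.897 points on average and MT-ATP6 by 0.135. The exact permutation test gave p = 0.1 for each of the 4, adjusted p = 0.3. Between shp16+shATR and shCont, 5 of 13 shares were separated, beside 41.8% of genes at large: MT-ND1, MT-ND2 and MT-CYB higher, and MT-CO2 and MT-ND4 lower. Without the library labelled shCont 1, 5 shares lay higher and 3 lower, beside 61% of genes at large. Without shp16 1, 2 shares lay higher and 4 lower in shp16+shATR than in shp16, beside 52.7%. MT-ND1 was thus at its highest share in shp16+shATR and at its lowest in shp16, with shCont between at 2.62%, 2.44% and 2.57% and overlapping shp16.

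MT-ND6 was looked at further because its gene lies on the other strand, with the limit that its counts may include antisense RNA. Its mean share of the pool, with the SD over 3 libraries, was 1.58% ± 0.196 for shCont, 1.26% ± 0.0801 for shp16 and 1.40% ± 0.130 for shp16+shATR. The exact permutation test gave p = 0.1 for shp16 against shCont, p = 0.2 for shp16+shATR against shp16 and p = 0.3 for shp16+shATR against shCont. Per length, the ratio of MT-ND6 to its neighbour MT-ND5 was 1.31 in the library labelled shCont 1 and between 0.703 and 0.794 in the other 8. In shCont 2 and 3 it was 0.787 and 0.769, in shp16 it was 0.703, 0.731 and 0.737, and in the shp16+shATR libraries it was 0.749, 0.710 and 0.794. All shCont libraries thus lay above all shp16 libraries, and those of shp16+shATR overlapped both groups.

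The shares were also summed by the complex that the proteins enter. Complex IV took 55.7%, 56.1% and 55.3% of the pool in shCont, 55.7%, 55.7% and 56.0% in shp16, and 55.0%, 54.6% and 54.4% in shp16+shATR. Complex I took 30.2%, 30.6% and 31.1% in shCont, 28.6%, 28.99% and 28.98% in shp16, and 30.02%, 30.1% and 30.4% in shp16+shATR. The complex I share was thus lower in each shp16 library than in any of the other 6, while the complex IV share was lower in each shp16+shATR library than in any of the other 6. Of single genes at large, as shares of their own chromosome's counts, 33.1% were separated between shp16 and shCont. The figure was 37.9% between shp16+shATR and shp16, and 41.8% between shp16+shATR and shCont. No such figure was worked out for sums of genes.

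Complex III, which is MT-CYB alone, was lower in each shCont library than in any of the other 6. The ATP synthase took 6.53% in the library labelled shCont 1 and 5.65% and 5.54% in shCont 2 and 3. It took 6.45% to 6.50% in shp16 and 6.23% to 6.38% in shp16+shATR. The mean difference of complex I was −1.80 percentage points for shp16 against shCont and 1.33 for shp16+shATR against shp16, where the SDs of the groups were 0.432, 0.225 and 0.232. The members of a complex did not all differ in the same direction. For shp16 against shCont MT-ND4 was at −1.53 points, MT-ND6 at −0.325, MT-ND1 at −0.138 and MT-ND3 at −0.0552. MT-ND4L was at 0.152, MT-ND5 at 0.0609 and MT-ND2 at 0.0371. For shp16+shATR against shp16 MT-CO2 was at −0.897, MT-CO1 at −0.250 and MT-CO3 at 0.0334. Each separated complex had p = 0.1 by the exact permutation test and an adjusted p of 0.171 over the 12 tests of 4 complexes, so none passed. The shCont and shp16 libraries each enter 2 of the comparisons.

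**Figure D5:**
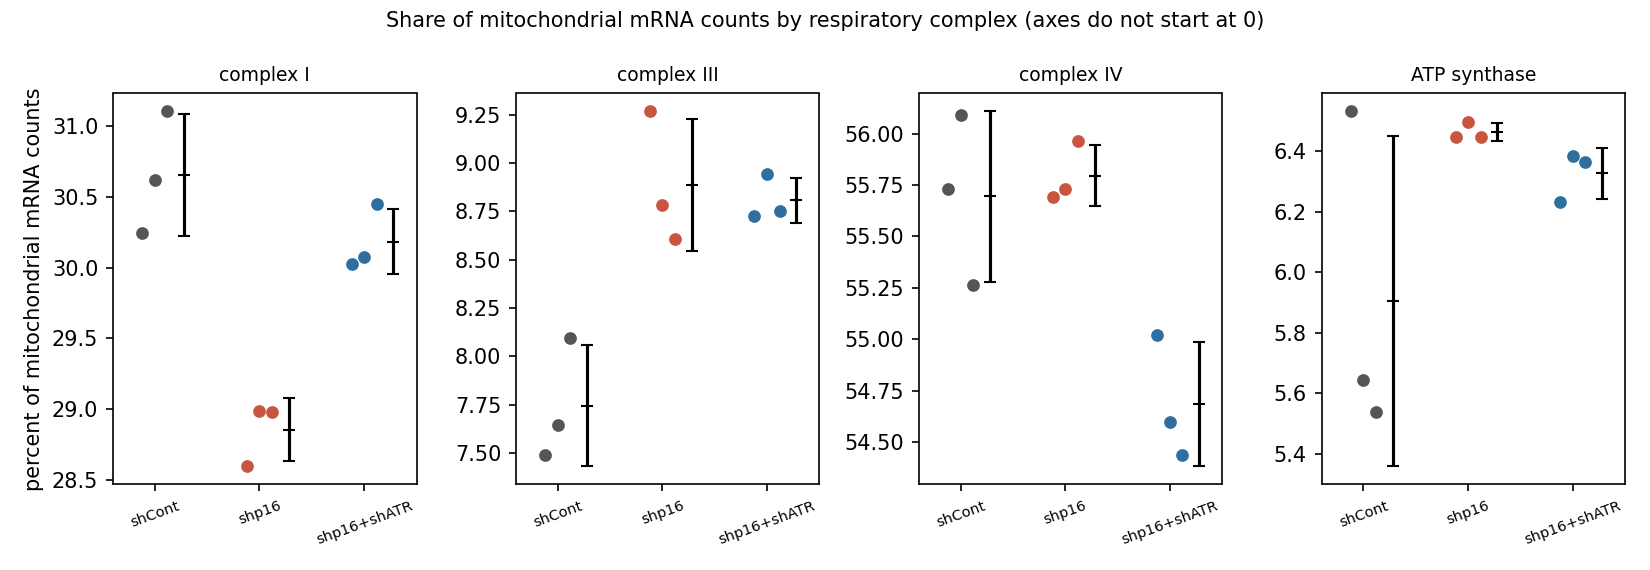
Percent of the mitochondrial mRNA counts that fell on the genes of each respiratory complex, 1 point per library, with the group mean ± SD (n = 3) beside the points; the axes do not start at 0. The shp16 libraries lie lowest for complex I, at 28.6% to 28.99%, and the shp16+shATR libraries lowest for complex IV, at 54.4% to 55.0%.

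A list of 41 nuclear genes was followed, of which 40 passed the filter on low counts. It holds genes that copy mitochondrial DNA or transcribe, process and degrade its RNA, and LONP1. It also holds regulators of nuclear genes, such as YY1 and ESRRA, so a call in the list is not always one in the RNA machinery. In shp16 against shCont, 1 was called higher and 1 lower, 2 of 40 beside the 14.8% of all genes, with a median log2 fold change of −0.04. YY1, a transcription factor that acts on many nuclear genes of mitochondria, was at 123, 114 and 118 CPM in shp16 and at 79.3, 90.6 and 98.1 in shCont, a rise of 0.40 on the log2 scale (SE 0.11, edgeR adjusted p = 0.0258). MTERF3, a mitochondrial DNA-binding protein of the MTERF family, was at 16.05, 22.4 and 19.7 CPM in shp16 and at 27.0, 25.1 and 25.6 in shCont, and fell by 0.42 on the log2 scale (SE 0.13, edgeR adjusted p = 0.0498). For both genes every shp16 library lay apart from every shCont library, as was so for 33.6% of all genes. Both calls were lost, giving 0 of 40, without shp16 1, and likewise without shCont 2, shp16 3, shp16+shATR a or shp16+shATR b. In these fits 8.29% to 10.9% of all genes were called.

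In shp16+shATR against shp16, 1 of the 40 was called higher and 2 lower, beside the 6.22% of all genes. ESRRA, a nuclear receptor that drives nuclear genes of respiration, was at 21.2, 19.6 and 19.9 CPM in shp16+shATR, and at 44.1, 52.4 and 53.6 in shp16. It fell by 1.31 on the log2 scale (SE 0.14, edgeR adjusted p = 0.000617). TFB1M, the methyltransferase of the small mitochondrial ribosomal RNA, was at 47.5, 47.2 and 46.9 CPM in shp16+shATR and at 26.8, 27.0 and 28.2 in shp16, a rise of 0.79 (SE 0.12, edgeR adjusted p = 0.0036).

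HSD17B10, a subunit of the ribonuclease P that cuts the mitochondrial transcripts at their transfer RNAs, was at 49.1, 47.7 and 51.0 CPM in shp16+shATR and at 90.3, 77.6 and 77.2 in shp16. It fell by 0.73 on the log2 scale (SE 0.16, edgeR adjusted p = 0.0215). The ranges of the groups did not overlap for any of these 3 genes, which were named for their small adjusted p. The same held for 37.7% of all genes in this comparison. Against shCont, 3 of the 40 were called higher and 7 lower in shp16+shATR, beside the 23.6% of all genes. ESRRA (−0.91, edgeR adjusted p = 0.000782), HSD17B10 (−0.69, adjusted p = 0.00932) and TFB1M (0.43, adjusted p = 0.022) were again among them, and this comparison shares the shp16+shATR libraries with the one before.

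Of the other list members, POLRMT, TFAM, LRPPRC, SLIRP and TWNK did not pass the test in any of the 3 comparisons, with or without the library labelled shCont 1. POLRMT, the mitochondrial RNA polymerase, had a mean ± SD of 118 ± 24.2 CPM for shCont, 115 ± 5.28 for shp16 and 110 ± 1.30 for shp16+shATR. TFAM, which packages mitochondrial DNA and starts its transcription, was at 35.3, 42.2 and 46.3 CPM in the shCont libraries, 50.7, 49.0 and 50.6 in those of shp16, and 48.0, 46.8 and 52.5 in those of shp16+shATR, with edgeR adjusted p of 0.129 for shp16 and 0.143 for shp16+shATR against shCont. LRPPRC and SLIRP, the pair that binds and stabilises mitochondrial mRNAs, had log2 fold changes of 0.09 and −0.18 in shp16 against shCont, and of 0.10 and −0.01 in shp16+shATR against shp16. TWNK, the helicase of mitochondrial DNA replication, had log2 fold changes of 0.03 and −0.25 in the same comparisons, the second with an edgeR adjusted p of 0.24.

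The number of calls also depended on the library labelled shCont 1. Without it, 5 of the 40 were called higher and 6 lower in shp16 against shCont, beside 25.9% of all genes in that fit. In shp16+shATR against shp16, 3 were then called higher and 8 lower, beside 19.9%. ESRRA rose in shp16 in that fit, by 0.51 (SE 0.11, edgeR adjusted p = 0.00568), whereas it had not passed the test with all 9 libraries.

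The nuclear genes of the same respiratory complexes were set beside the mitochondrial ones. Of 72 such genes 71 were tested. In shp16 against shCont, 0 were called higher and 1 lower, beside the 14.8% of all genes. The median log2 fold change was −0.19, with medians of −0.18 for complex I, −0.24 for complex III, −0.27 for complex IV and −0.15 for the ATP synthase. Between shp16+shATR and shp16 the median was −0.080, with 0 called higher and 1 lower, beside the 6.22% of all genes. Against shCont, shp16+shATR stood at −0.27, with 0 higher and 7 lower, of which 5 belonged to complex I, beside the 23.6% of all genes.

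The medians of the nuclear and the mitochondrial genes thus lay below 0 in all 3 comparisons with all 9 libraries. For the nuclear genes this depended on the library labelled shCont 1 in shp16 against shCont, where their median was 0.060 without it. In that fit 15 of them were called higher and 3 lower, beside 25.9% of all genes, a share near that of genes at large. Then 7 were higher and 6 lower in shp16+shATR against shCont, with a median of −0.042, beside 33.3% of all genes.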

How the data were processed

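SKMEL28 RNA was sequenced by Novogene in 9 libraries. The submitters' processing notes name STAR 2.6.1, DESeq2 and GRCh38, in no stated role. Nuclear gene coordinates in the deposited tables are not those of GENCODE v29 (GRCh38): of 45329 nuclear genes only 0.635% start where it places them. They were not compared with an annotation of GRCh37. The authors deposited raw counts per gene, without normalization, and FPKM values, which were checked to be the counts divided by length and by library total (largest relative difference 4.22e-07). The 3 shp16+shATR count columns carry 1 name and are called a, b and c. They match FPKM replicates 1, 2 and 3 in order. Total counts ranged from 17314662 to 23588174.

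Counts of the 9 libraries were filtered by filterByExpr, normalized by TMM and fitted in 1 quasi-likelihood model of 3 groups (edgeR 4.0.16, R 4.3.3), with Benjamini-Hochberg adjustment over 15776 genes at 0.05. Shares were compared by two-sided exact permutation tests (scipy 1.17.1). Intervals for shares and counts cover counting error only, since PCR duplicates were not separable. Genes named are all 13 mitochondrial mRNAs, CDKN2A, ATR, TFAM, POLRMT, LRPPRC, SLIRP, TWNK, up to 4 further members of the nuclear list with the smallest adjusted p under 0.05 in each of the first 2 comparisons, and the 3 nuclear copies with most counts. The members and lists were chosen with earlier results of these data known. Where a symbol had 2 rows, the row with more counts was used. Alternatives were DESeq2 1.42.0, limma 3.58.1 on log2 FPKM with 1 or 0.1 added, other normalizations and filters, the replicate block, and each library left out. Nuclear copies were aligned with biopython 1.88. The ratio of ribosomal RNA to mRNA counts was not run, since the tables used here gave only the 13 mRNAs. The procedure was tested on simulated data.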

Additional observations from a re-analysis of the deposited data

How the results depend on the processing

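The groups hold 3 libraries each, 1 of which stands apart in shCont and 1 in shp16, and p-values are taken to cover only libraries of 1 experiment. Of the 780 recalculations for single mitochondrial mRNAs, 710 kept their direction and their side of the threshold. A call of 0 of 13 mitochondrial mRNAs held for shp16+shATR against shp16 under every alternative run. Without a filter on low counts it became 1 in shp16 against shCont (MT-ND6 lower, edgeR adjusted p = 0.00402, beside 9.93% of all genes) and 4 in shp16+shATR against shCont (MT-CO2, MT-ND3, MT-ND4 and MT-ND6 lower, beside 14.1%). The adjusted p of MT-CO2 in the latter was 0.00307. The cause was not tested. Leaving out a library, 0 to 3 were called in shp16 against shCont, beside 8.29% to 25.9% of all genes.

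The median log2 fold change of the 13 mRNAs ranged from −0.50 to 0.030 for shp16 against shCont and from −0.28 to 0.27 for shp16+shATR against shp16 when each library was left out, and the ends −0.50 and 0.27 came without shp16 1. The difference in the mitochondrial share of counts between shp16+shATR and shp16 ranged from −0.792 to 0.702 percentage points, and 0.702 came without shp16 1.

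Of the nuclear list of 41, 2 were called in shp16 against shCont. Each count is followed by the percent of all genes called in that fit, which was 14.8% here. The count was 6 with DESeq2 (18.6%), 4 with upper-quartile normalization (15.2%) and 4 with limma on log2(FPKM + 1) (13.1%). It was 1 without a filter (9.93%) and 0 at an adjusted p of 0.01, where no share of all genes was taken. It was also 0 in a fit of only the groups compared (7.83%), with the replicate block (2.79%) and with shp16 2 and 3 summed (8.44%). With a library left out it was 0 to 11 (8.29% to 25.9%), 11 without the library labelled shCont 1 (25.9%). For shp16+shATR against shp16 the 3 calls (6.22%) became 5 with DESeq2 (9.56%) and 10 with only the groups compared (18.9%). With a library left out they became 2 to 11 (1.81% to 19.9%), 11 again without the library labelled shCont 1 (19.9%). For shp16+shATR against shCont the 10 calls (23.6%) became 4 at an adjusted p of 0.01 and 6 with the replicate block (18.9%). With a library left out they became 4 to 12 (14.5% to 33.3%). The lowest count was 4, without shp16+shATR a (14.5%) or b (14.6%). It was 5 without c (14.9%) or without shCont 2 (19%).

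The replicate numbers did not pair the libraries: deviations of same-numbered libraries from their group means correlated at −0.303 to 0.289. With the replicate block, which could be fitted to counts only for shp16 against shCont, the medians of the 13 mRNAs were −0.19, −0.051 and −0.16. In each comparison 0 were called, beside 2.79%, 3.05% and 18.9% of all genes.

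Changes of sign were all in values that did not pass the test before or after. With shp16 2 and 3 summed, the log2 fold changes for shp16 against shCont turned to 0.017 for MT-ND2, 0.052 for MT-CO1, 0.12 for MT-ATP6, 0.022 for MT-CO3 and 0.023 for MT-ND5. Those for shp16+shATR against shp16 turned to −0.018 for MT-ND1, −0.14 for MT-ND5 and −0.055 for MT-ND6. With limma on log2 FPKM with 1 added, 0.1 added and the replicate block, in turn, MT-CYB in shp16 against shCont became −0.01388, −0.0139 and −0.0061, where the last is the block on counts. MT-ND2 in shp16+shATR against shp16 became 0.03964, 0.03968 and 0.03964, and it was 0.0139 with upper-quartile normalization. MT-ATP8 in shp16+shATR against shCont became 0.00708, 0.0155 and 0.00708. MT-ND5 in shp16+shATR against shp16 became −0.0047 without a filter.

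With a library left out, signs changed in shp16 against shCont for MT-ND2 (−0.50 to 0.021), MT-CO1 (−0.48 to 0.053), MT-ATP6 (−0.39 to 0.17), MT-CO3 (−0.51 to 0.035), MT-ND4L (−0.15 to 0.41), MT-ND5 (−0.46 to 0.043) and MT-CYB (−0.34 to 0.24). In shp16+shATR against shp16 they changed for MT-ND1 (−0.020 to 0.54), MT-ND2 (−0.19 to 0.34), MT-CO1 (−0.28 to 0.25), MT-CO2 (−0.35 to 0.10), MT-ATP6 (−0.29 to 0.22), MT-CO3 (−0.27 to 0.27), MT-ND3 (−0.34 to 0.11), MT-ND4L (−0.46 to 0.11), MT-ND4 (−0.25 to 0.27), MT-ND5 (−0.16 to 0.34), MT-ND6 (−0.085 to 0.38) and MT-CYB (−0.31 to 0.27). In shp16+shATR against shCont they changed for MT-ND1 (−0.22 to 0.056), MT-ATP8 (−0.33 to 0.43), MT-ATP6 (−0.31 to 0.037), MT-ND4L (−0.24 to 0.16) and MT-CYB (−0.19 to 0.015). The ratio of ribosomal RNA to mRNA counts was not run, and the share of all mitochondrial counts equals that of the mRNAs here.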
